A study of Mus musculus with 16 samples.

Results

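The integrated stress response genes described here are Atf4, Atf5, Ddit3, Atf3, Ppp1r15a, Ppp1r15b, Trib3, Asns, Sesn2 and Chac1. They were taken by name, and all 10 were found among the 21977 genes of the table. Ribosome footprints (RPFs, the mRNA pieces that translating ribosomes protect from nuclease) were sequenced together with total RNA from the same 8 cultures of mouse embryonic stem cells, 16 libraries in all. The cultures were 3 Nat1-/- lines (B12, B2 and C3, replicates 1, 2 and 3), 3 Nat1+/- lines (A7, B4 and C1, replicates 1, 2 and 3) and 2 cultures of the wild-type (WT) line RF8, named WTex1 and WTex2. All were grown with LIF, the cytokine that keeps mouse embryonic stem cells undifferentiated, on gelatin without a named feeder layer. The targeted gene, Nat1, is now called Eif4g2 (its protein also DAP5) and encodes an eIF4G-like initiation scaffold that does not bind the cap-binding protein eIF4E. Each targeted line is represented by 1 culture, so the spread among them holds line and culture differences together, whereas the WT cultures share 1 line. The series design names the comparison of RPF and total RNA between WT, Nat1+/- and Nat1-null cells. No stress treatment is named in the labels.

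In the integrated stress response, kinases that sense amino acid shortage, haem shortage, viral RNA or unfolded protein in the endoplasmic reticulum (ER) phosphorylate the initiation factor eIF2 on its alpha subunit. Phosphorylated eIF2 alpha inhibits the exchange factor eIF2B and lowers initiation on most mRNAs, while the mRNAs of a few regulators, Atf4 foremost among them, carry upstream open reading frames (uORFs) through which their main reading frame is then translated better. ATF4 is a bZIP transcription factor whose targets include genes for amino acid uptake and synthesis, the transcription factors ATF3 and CHOP (the product of Ddit3), and PPP1R15A (GADD34), which returns protein phosphatase 1 to eIF2 alpha and so closes the loop.

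The promoter windows below are shown because they hold matches to DNA words through which ATF4 and its relatives can act. The first is the C/EBP-ATF response element (CARE, searched as TGATGNAA, where N is any base). The other is the cyclic AMP response element (CRE, searched as TGACGTCA and in the variant TGACGTAA). Windows of 250 bases before to 50 after each annotated start came from RefSeq (GRCm38.p6), which held 9 of the 10 genes (Ppp1r15b had no entry), and both strands were searched. The 4 sequences are stretches of those windows read 5′ to 3′ on the gene's own strand, with the matches in capitals.
Atf3, chr1:191183334-191183493, minus strand: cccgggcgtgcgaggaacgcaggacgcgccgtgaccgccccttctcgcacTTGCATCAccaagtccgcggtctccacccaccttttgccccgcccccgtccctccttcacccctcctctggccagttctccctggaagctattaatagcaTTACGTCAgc
Chac1, chr2:119350999-119351106, plus strand: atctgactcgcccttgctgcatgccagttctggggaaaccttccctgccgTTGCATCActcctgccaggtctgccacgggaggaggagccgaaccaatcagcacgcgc
Asns, chr6:7693210-7693282, minus strand: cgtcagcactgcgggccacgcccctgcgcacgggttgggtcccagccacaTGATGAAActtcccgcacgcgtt
Ppp1r15a, chr7:45526269-45526330, minus strand: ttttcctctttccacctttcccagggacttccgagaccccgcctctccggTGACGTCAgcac
In Atf3 the capitals mark a CARE match that begins 110 bases before the start, read on the opposite strand (TTGCATCA), and a CRE variant that begins 10 bases before it (TTACGTCA). In Chac1 the CARE match begins 193 bases before the start and in Asns 23 bases before it, and Trib3 held another match 15 bases after its start, which is not printed. The Ppp1r15a window held the palindromic CRE 12 bases before the start. TGATGNAA was thus found in the windows of 4 of the 9 genes, and in 3.97% of all 32851 promoter windows of the same length. The palindrome TGACGTCA occurred in 1 of the 9, against 1.79% of all windows, and TGACGTAA in 1, against 0.499%. The ER stress element (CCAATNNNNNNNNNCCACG) was found in 0 of the 9 and in 0.119% of all windows. A match of letters says nothing of whether a factor binds there in these cells.

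RPF libraries held 17.5 to 23.8 M reads (mega-reads) and total RNA libraries 13.2 to 42.6 M, with B12, WTex1 and WTex2 the deepest for total RNA. Values below are the deposited normalised reads, that is, reads divided by 1 factor per library, so a level is comparable between cultures but not between genes of different length. Eif4g2 RPF fell to 1089, 1114 and 922 normalised reads in Nat1-/- cultures, against 10261, 7608 and 7275 in Nat1+/- cultures and 17666 and 13862 in WT cultures, the order the labels give, and its total RNA was still 12249, 8795 and 5085 in Nat1-/- cultures. All 10 embryonic stem cell markers were present in every culture, with a summed RPF of 190839 to 214933 in Nat1-/-, 116994 to 139177 in Nat1+/- and 96063 to 113598 in WT cultures. Summed RPF of 10 fibroblast markers was 168 to 264 in Nat1-/-, 595 to 1547 in Nat1+/- and 3619 and 10754 in WT cultures. Lum, a defining fibroblast gene, was at 0 in both assays in all 3 Nat1-/- cultures and at 0 or 1.01 in Nat1+/- cultures. It was at 0 in both assays in WTex2, and at 3.11 in RPF and 0.921 in total RNA in WTex1. In WTex1 RPF 1 read equals 0.7768 normalised reads. Lum thus rests on a few reads and cannot show whether it followed the summed level. In these bulk libraries, fewer cells of one type and less RNA per cell cannot be told apart.

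Against Nat1+/-, Nat1-/- cultures carried more footprints and more RNA of Atf4 and of its relative Atf5, and more of both genes for the eIF2 alpha phosphatase subunits, Ppp1r15a and Ppp1r15b. Sesn2 footprints fell. The usual downstream effectors of the pathway, Ddit3, Atf3, Trib3, Asns and Chac1, did not pass the test in either assay. By limma with Benjamini-Hochberg adjustment over all genes tested (adjusted p under 0.05, here "called"), 4 of 10 genes were called higher and 1 lower in RPF, against 17.6% higher and 18.6% lower among 13110 genes. In total RNA the counts were 4 higher and 0 lower, against 19.8% higher and 20.2% lower among 13813 genes. The median log2 fold change of the 10 genes was 0.22 in RPF, beside 0.024 over all genes, and 0.23 in total RNA, beside 0.0061. All 10 passed the filter on low values (a mean of at least 10 in the assay). The comparisons of Nat1-/- with Nat1+/- and of Nat1+/- with WT share the Nat1+/- libraries, and those with WT share the WT libraries.

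**Figure D1:**
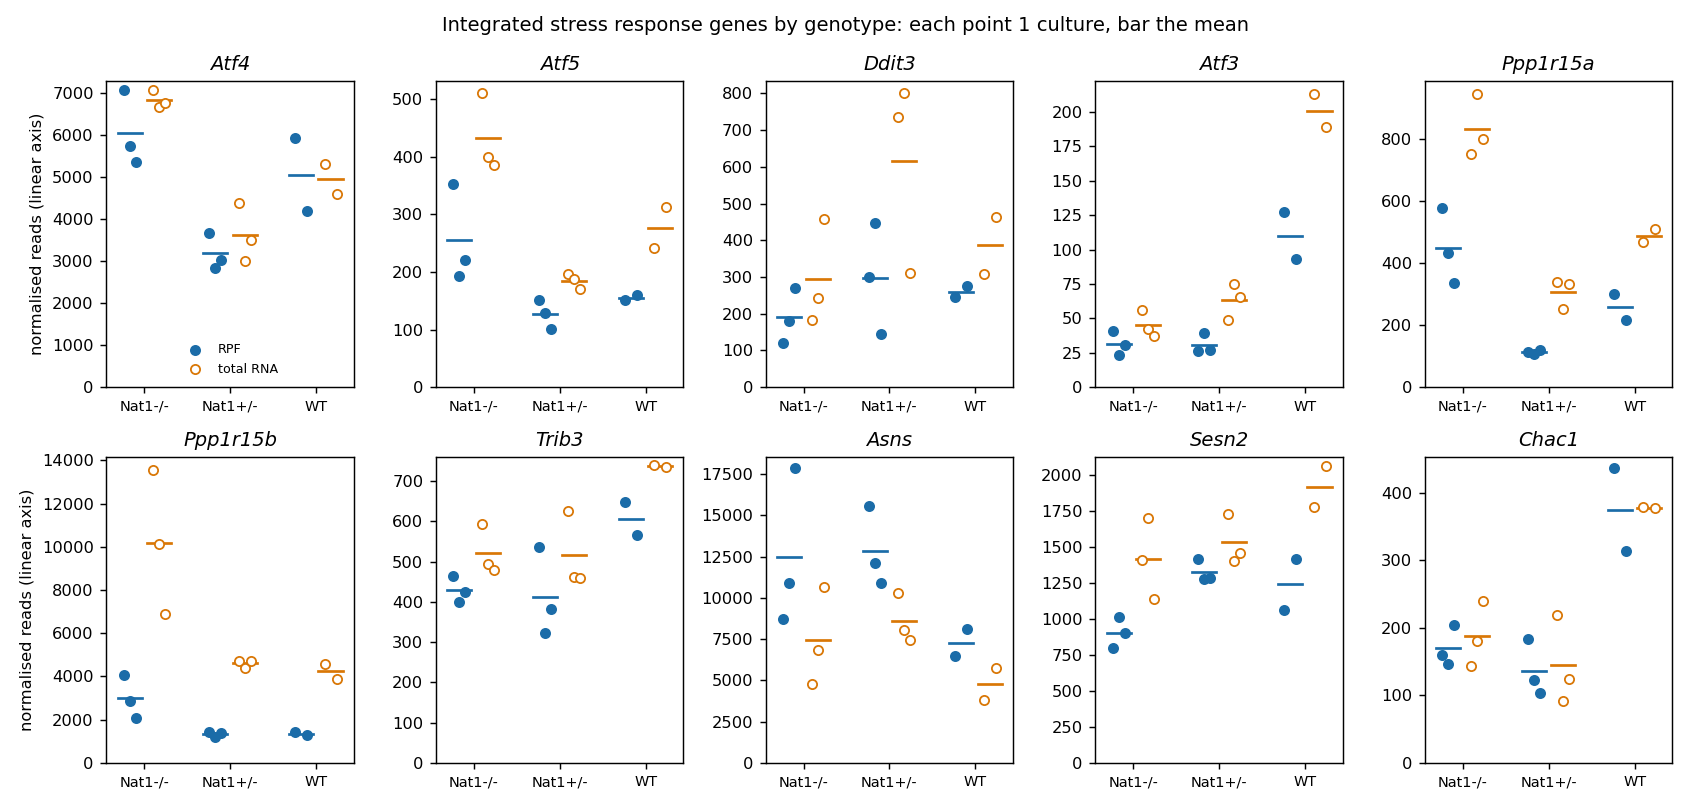
Normalised reads (linear axes from 0, one scale per gene) of the 10 genes in each culture, Nat1-/- left, then Nat1+/-, then WT; filled points are RPF, open points total RNA and bars the group means. Atf4, Atf5, Ppp1r15a and Ppp1r15b are higher in all Nat1-/- than in all Nat1+/- cultures, and Atf3 and Chac1 are highest in the WT cultures, at RPF means of 110 and 375.

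Among the transcription factors, Atf4 stood at 7077, 5740 and 5368 RPF normalised reads in Nat1-/- cultures (B12, B2 and C3), against 3682, 2836 and 3038 in Nat1+/- cultures (A7, B4 and C1), with 5933 and 4189 in WT cultures. Its total RNA was 7083, 6677 and 6763 in Nat1-/- cultures, against 4391, 3004 and 3498 in Nat1+/- cultures, with 5307 and 4591 in WT cultures. Every Nat1-/- culture lay above every Nat1+/- culture in both assays, and the WT cultures lay between the means of the targeted genotypes. The log2 fold change against Nat1+/- was nearly equal in the RPF and total RNA fits, 0.93 ± 0.18 (SE, limma adjusted p = 0.00373) and 0.93 ± 0.15 (adjusted p = 0.00112), a 1.9-fold and 1.91-fold rise. Atf5, a bZIP factor that like Atf4 is controlled through uORFs, had RPF values of 352, 193 and 221 in Nat1-/- cultures, against 152, 128 and 101 in Nat1+/- cultures, with 151 and 160 in WT cultures. Its total RNA of 511, 400 and 385 in Nat1-/- cultures stood above 196, 187 and 171 in Nat1+/- cultures and 241 and 312 in WT cultures. Neither assay showed overlap of the targeted genotypes, and B12 was the highest culture in both. The fold change of Atf5 was 0.97 ± 0.26 in RPF (adjusted p = 0.0157) and 1.21 ± 0.19 in total RNA (adjusted p = 0.000936). The RPF call rests on few reads, 96 to 326 per library, and was lost without the Nat1+/- culture C1 (0.82, adjusted p = 0.0554) and with only the cultures of shallow total RNA libraries (0.72, adjusted p = 0.0656).

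Ddit3 encodes CHOP, a bZIP factor of the late, pro-apoptotic stress response and itself a reported ATF4 target. Its RPF values were 121, 179 and 270 in Nat1-/- cultures, against 301, 448 and 146 in Nat1+/- cultures, with 245 and 276 in WT cultures. In total RNA it had 184, 244 and 459 in Nat1-/- cultures, against 735, 800 and 311 in Nat1+/- cultures, with 308 and 464 in WT cultures. C1 lay apart from A7 and B4 in both assays, and the genotypes overlapped. The log2 fold change was -0.58 ± 0.40 in RPF (adjusted p = 0.278) and -1.05 ± 0.40 in total RNA (adjusted p = 0.0612), neither called. Without C1 both were called, at -1.02 (adjusted p = 0.0478) and -1.48 (adjusted p = 0.0126), and the total RNA value was also called without the Nat1-/- culture C3 (-1.42, adjusted p = 0.0142) and by DESeq2 (-1.08, adjusted p = 0.018). Atf3, a stress-induced repressor of the same family, was low in targeted cells. It had 41, 23.1 and 30.8 RPF normalised reads in Nat1-/- cultures, against 26, 39.5 and 27.3 in Nat1+/- cultures, and the groups overlapped. Its fold change was 0.02 (95% interval -0.69 to 0.73) in RPF and -0.47 (-1.06 to 0.13) in total RNA. A rise of the size seen for Atf4 lay outside both intervals, but a fall of that size lay within the total RNA interval.

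Both phosphatase subunit genes rose, by the largest fold changes of the 10 genes in RPF. Ppp1r15a, the stress-inducible subunit, had RPF values of 578, 431 and 334 in Nat1-/- cultures, against 112, 106 and 120 in Nat1+/- cultures, with 299 and 216 in WT cultures. Its total RNA was 751, 944 and 799 in Nat1-/- cultures, against 338, 250 and 333 in Nat1+/- cultures, with 466 and 509 in WT cultures. In both assays the order was Nat1-/- above WT above Nat1+/- with no overlap. The fold change against Nat1+/- was 1.95 ± 0.23 in RPF (adjusted p = 0.000327, 3.86-fold) and 1.44 ± 0.17 in total RNA (adjusted p = 0.000261, 2.72-fold). Ppp1r15b, the constitutive subunit (also called CReP), had RPF values of 4068, 2870 and 2086 in Nat1-/- cultures, against 1437, 1192 and 1398 in Nat1+/- cultures, with 1426 and 1269 in WT cultures. Its total RNA of 13555, 10147 and 6894 in Nat1-/- cultures lay above 4693, 4379 and 4734 in Nat1+/- cultures and 4598 and 3871 in WT cultures. The Nat1-/- cultures spread widely, with B12 highest and C3 lowest in both assays, while the 5 other cultures were close together. The rise was 1.12 ± 0.22 in RPF (adjusted p = 0.00405) and 1.09 ± 0.21 in total RNA (adjusted p = 0.00291). The calls of Atf4, Ppp1r15a and Ppp1r15b held in both assays under each of 18 alternative settings, including each single culture left out.

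Of the effectors, Sesn2 fell in RPF, and Trib3, Chac1 and Asns were called in neither assay. Trib3, a pseudokinase induced by ATF4 and CHOP that dampens ATF4 activity, had RPF values of 464, 400 and 425 in Nat1-/- cultures, against 536, 322 and 382 in Nat1+/- cultures, and its fold change was 0.09 (95% interval -0.35 to 0.52). Chac1, a glutathione-degrading enzyme among the most ATF4-dependent genes, had 160, 147 and 204 in Nat1-/- cultures, against 184, 123 and 103 in Nat1+/- cultures, a fold change of 0.35 (-0.22 to 0.91). Both genes overlapped between the genotypes, and in total RNA they were at 0.02 (-0.35 to 0.40) for Trib3 and 0.43 (-0.26 to 1.11) for Chac1. The total RNA interval of Chac1 includes the Atf4 fold change of 0.93. Asns, which makes asparagine and is the best known amino acid response gene, ranged from 8706 in B12 through 10920 in B2 to 17856 in C3, against 15580, 12095 and 10887 in Nat1+/- cultures. The fold change of Asns was -0.09 (-0.66 to 0.47) in RPF and -0.27 (-0.87 to 0.33) in total RNA, with both genotypes interleaved. Within the Nat1-/- lines, Asns and Ddit3 were highest in C3 and lowest in B12 in both assays, while Atf4, Ppp1r15b and Atf5 were highest in B12. Sesn2, a stress-induced inhibitor of mTORC1 signalling, had RPF values of 795, 1016 and 901 in Nat1-/- cultures, against 1418, 1279 and 1283 in Nat1+/- cultures, with 1063 and 1418 in WT cultures. Each Nat1-/- culture was below each Nat1+/- culture, and the fold change was -0.56 ± 0.15 (adjusted p = 0.0187). The Sesn2 call was lost without the Nat1+/- culture A7 (-0.51, adjusted p = 0.0643), and its total RNA differed by -0.13 (-0.50 to 0.24). The 4 genes whose windows held TGATGNAA, namely Atf3, Chac1, Asns and Trib3, were all among the 5 uncalled in RPF. Ddit3, also uncalled, held none, and neither did Atf4, Atf5, Ppp1r15a and Sesn2, which were called. Ppp1r15b, also called, had no window. The windows span only 250 bases before to 50 after each start, so elements outside them were not seen. A link between matches and calls was not tested.

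**Figure D2:**
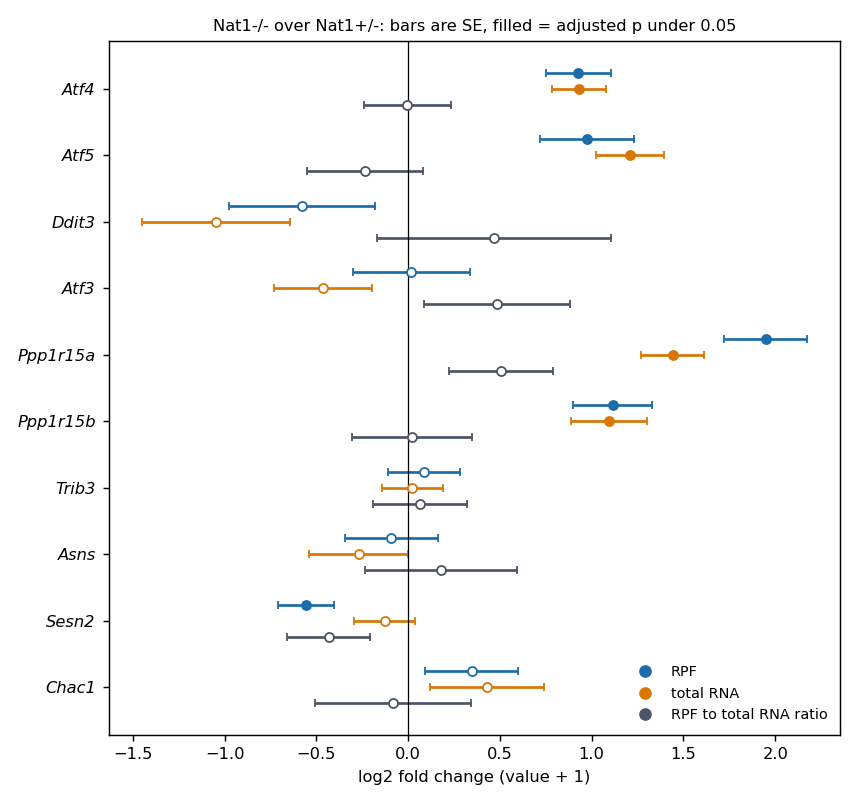
Log2 fold change of Nat1-/- over Nat1+/- cultures (3 against 3) for each gene in RPF, in total RNA and in the RPF to total RNA ratio; bars are standard errors and filled points have a limma adjusted p under 0.05. RPF and total RNA points lie close together for Atf4 (0.93 and 0.93) and Ppp1r15b (1.12 and 1.09), and every ratio point is open. The ratio fit drawn here does not pair RPF with total RNA by culture. With culture as a term, the Sesn2 ratio was called (limma adjusted p = 0.0456).

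Footprints relative to RNA were read from the RPF to total RNA ratio of each culture and tested over the 16 libraries as an assay by genotype interaction. None of the 10 ratios was called between Nat1-/- and Nat1+/-, where 0.580% of 12933 genes were, none against WT for Nat1-/- (0.00773% of genes) and none for Nat1+/- against WT (0.00% of genes, or 663 genes at an unadjusted p under 0.05). At an unadjusted p under 0.05, limma gave 0 of the 10 in each comparison. By edgeR and DESeq2 on the recovered reads, 0 of the 10 were called at an adjusted p under 0.05. DESeq2 gave no adjusted p for the Atf3 ratio between Nat1-/- and Nat1+/-, which was counted as not called. RPF and total RNA of one culture varied together, and with culture as a term in the limma fit 1 of the 10 was called between Nat1-/- and Nat1+/-, against 15.8% of genes. That gene was Sesn2, with ratios of 0.564, 0.596 and 0.792 in Nat1-/- cultures, against 0.819, 0.909 and 0.878 in Nat1+/- cultures, and 0.599 and 0.687 in WT cultures. The Sesn2 ratio changed by -0.43 ± 0.13 in that fit (adjusted p = 0.0456), and by -0.43 ± 0.23 (adjusted p = 0.549) without the culture term. Its WT cultures lay with the Nat1-/- cultures, and the change between Nat1-/- and WT was 0.005 (95% interval -0.31 to 0.32 with the culture term).

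The ratio of Atf4 was 0.999, 0.86 and 0.794 in Nat1-/- cultures, against 0.839, 0.944 and 0.868 in Nat1+/- cultures, and 1.12 and 0.912 in WT cultures. With the culture term its difference between Nat1-/- and Nat1+/- was -0.004 (95% interval -0.25 to 0.25), so the higher Atf4 footprint level stood beside an RNA level higher by a like amount. Ppp1r15b had the tightest ratio, 0.3, 0.283 and 0.303 in Nat1-/- cultures, against 0.306, 0.272 and 0.295 in Nat1+/- cultures, with a difference of 0.02 (-0.17 to 0.21). Ppp1r15a had 0.769, 0.456 and 0.418 in Nat1-/- cultures, against 0.33, 0.424 and 0.36 in Nat1+/- cultures, and 0.642 and 0.424 in WT cultures. C3 lay just below B4, B12 and WTex1 were highest, and the difference of 0.51 (-0.004 to 1.02) was not called (adjusted p = 0.157 with the culture term). The Ddit3 ratios of 0.658, 0.736 and 0.588 in Nat1-/- cultures all lay above 0.41, 0.559 and 0.469 in Nat1+/- cultures, at a difference of 0.47 ± 0.17 that was not called (adjusted p = 0.0772 with the culture term). Asns, Atf3 and Ddit3 had higher and Sesn2 lower ratios in every Nat1-/- than in every Nat1+/- culture, 4 of the 10 genes, where 36.9% of 12933 genes showed no overlap.

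Ranked among all 12933 genes within each culture, the ratio of Ppp1r15b was always low, between the 6.43 and 11.7 percentile, and that of Asns always high, between the 85.9 and 90.8 percentile. Atf4 lay between the 50.7 and 72.2 percentile, Trib3 between 43.1 and 58.8, and Chac1 between 53.6 and 83.8. Atf5 reached at most 50, Ppp1r15a ranged widely between 10 and 50, Ddit3 between 16.4 and 53.1, Atf3 between 17.5 and 53.2, and Sesn2 between 34 and 60.5. Whether exons or coding sequence were counted is not stated in the labels or notes used here, and reads over uORFs were not separated from those over the main reading frame, which limits what a ratio over whole genes shows for these mRNAs.

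**Figure D3:**
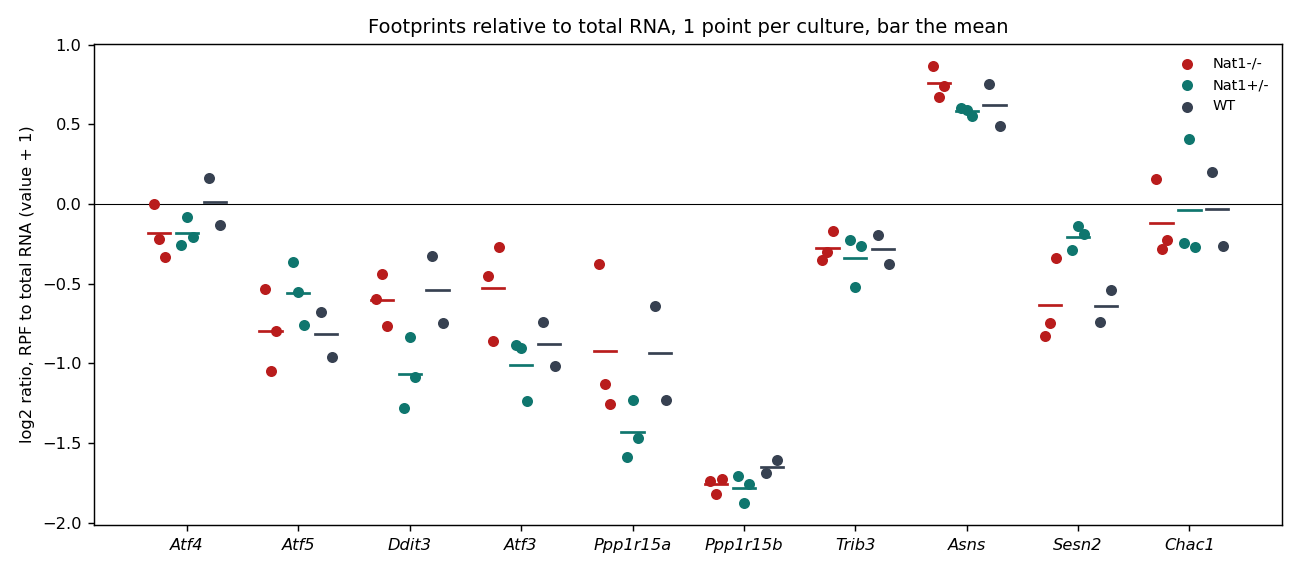
Log2 ratio of RPF to total RNA (values + 1) for each gene, one point per culture, Nat1-/- left, Nat1+/- in the middle, WT right, bars the means. Ppp1r15b forms the tightest and lowest group, Asns the highest, and the Nat1-/- and Nat1+/- points of Sesn2 and Ddit3 do not overlap.

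Against WT, Nat1-/- cultures had less of Atf3 and Chac1 and more of both phosphatase subunit genes in both assays, and more Atf4 and Atf5 RNA. In RPF 2 of the 10 genes were called higher and 2 lower, against 16.5% higher and 18.3% lower over all genes, with a median of -0.09 beside 0.029. In total RNA 4 were called higher and 2 lower, against 16.2% higher and 18.9% lower, with a median of 0.01 beside 0.022. Atf3 RPF was 41, 23.1 and 30.8 in Nat1-/- cultures, against 127 and 92.9 in WT cultures, a fold change of -1.78 ± 0.36 (adjusted p = 0.0042). Its total RNA was 56.4, 42.6 and 37.3 in Nat1-/- cultures, against 213 and 189 in WT cultures, a fold change of -2.14 ± 0.30 (adjusted p = 0.000529) that held in all 18 settings. Chac1 RPF was 160, 147 and 204 in Nat1-/- cultures, against 436 and 314 in WT cultures (-1.13 ± 0.28, adjusted p = 0.013), and its total RNA was 143, 180 and 239 against 379 and 377 (-1.04 ± 0.35, adjusted p = 0.0394). Neither gene overlapped between the genotypes in either assay. Atf3 was lost in RPF without WTex1 (adjusted p = 0.0645). Ppp1r15b was 1.11 ± 0.24 higher in RPF (adjusted p = 0.0066) and 1.22 ± 0.23 higher in total RNA (adjusted p = 0.00299), with the RPF call lost without WTex2 (adjusted p = 0.0575). Ppp1r15a rose by less than against Nat1+/-, at 0.78 ± 0.25 in RPF (adjusted p = 0.0384) and 0.76 ± 0.19 in total RNA (adjusted p = 0.0108). Atf4 RNA was 0.47 ± 0.17 higher (adjusted p = 0.0486) and Atf5 RNA 0.64 ± 0.21 higher (adjusted p = 0.0348), whereas their RPF differences of 0.27 (95% interval -0.17 to 0.71) and 0.67 (0.03 to 1.30) were not called.

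With 2 WT cultures, single libraries decided several of these calls. Leaving out WTex1 left 1 of the 4 RPF calls (Ppp1r15b), leaving out WTex2 left 2 (Atf3 and Chac1), and either left 2 of the 6 total RNA calls (Atf3 and Ppp1r15b). Without the Nat1-/- culture B2, 2 of the 4 RPF calls were left (Atf3 and Ppp1r15b). Over these settings the adjusted p of Chac1 in RPF reached 0.143 and that of Ppp1r15a 0.262. Atf4 RNA was called in 7 of the 18 settings, Atf5 RNA in 12, Chac1 RNA in 11 and Ppp1r15a RPF in 10. Trib3 and Sesn2 were lower than WT without being called. Trib3 RPF was 464, 400 and 425 in Nat1-/- cultures, against 648 and 566 in WT cultures, a fold change of -0.50 (95% interval -0.98 to -0.01, adjusted p = 0.103). Sesn2 differed by -0.45 in RPF (-0.83 to -0.07, adjusted p = 0.0672) and by -0.45 in total RNA (adjusted p = 0.081).

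Nat1+/- cultures, set against the same WT cultures, had less Atf3, Chac1 and Ppp1r15a in both assays. These were 3 of the 10 genes called lower and 0 higher in RPF, against 5.13% lower and 5.35% higher over all genes, and 3 lower and 0 higher in total RNA, against 5.41% lower and 4.60% higher. The median over the 10 was -0.45 in RPF, beside -0.008 over all genes, and -0.50 in total RNA, beside -0.024. Atf3 RPF was 26, 39.5 and 27.3 in Nat1+/- cultures, against 127 and 92.9 in WT cultures (-1.80 ± 0.36, adjusted p = 0.0231), and Chac1 RPF was 184, 123 and 103 against 436 and 314 (-1.47 ± 0.28, adjusted p = 0.0217). Ppp1r15a RPF was 112, 106 and 120 in Nat1+/- cultures, against 299 and 216 in WT cultures (-1.17 ± 0.25, adjusted p = 0.0266), and its total RNA differed by -0.68 ± 0.19 (adjusted p = 0.0499). Each was lower in every Nat1+/- than in every WT culture. Atf4 was also lower in every Nat1+/- than in every WT culture without being called, at -0.66 ± 0.20 in RPF (adjusted p = 0.0607) and -0.46 ± 0.17 in total RNA (adjusted p = 0.0955). Of the 3 RPF calls, 0 were left without WTex1, without WTex2 or without C1, and 1, Chac1, without A7, while 5 genes were called without B12 or without C3. Of the 3 total RNA calls, 0 were left without WTex1 or without WTex2 and 1 without B2, A7, B4 or C1.

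**Figure D4:**
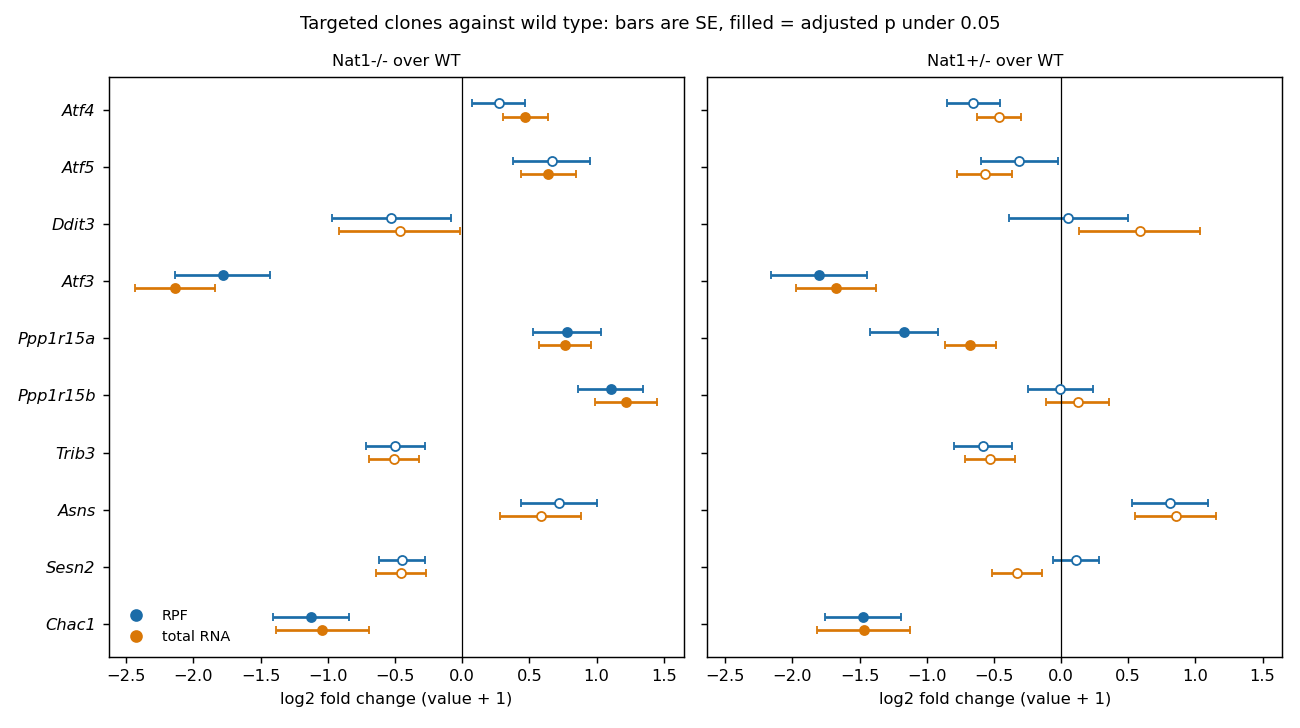
Log2 fold change of Nat1-/- (left panel) and Nat1+/- cultures (right panel) over the same 2 WT cultures, for RPF and total RNA; bars are standard errors and filled points have a limma adjusted p under 0.05. Atf3 and Chac1 are filled and negative in both panels, and Ppp1r15a is positive on the left (0.78 in RPF) and negative on the right (-1.17 in RPF).

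Across the 3 genotypes the genes fell into different orders. Ppp1r15b was high in Nat1-/- cultures, at an RPF mean of 3008 ± 998 (SD, n = 3), with 1342 ± 132 in Nat1+/- cultures (n = 3) and 1347 ± 110 in WT cultures (n = 2), and the last pair did not differ beyond their spread. Ppp1r15a averaged 447 ± 123 in Nat1-/-, 113 ± 6.71 in Nat1+/- and 257 ± 58.8 in WT cultures, with WT in the middle and every neighbouring pair apart. Atf4 had the same order of means, at 6062 ± 899 in Nat1-/-, 3185 ± 442 in Nat1+/- and 5061 ± 1233 in WT cultures, but Nat1-/- and WT cultures overlapped. Atf3 averaged 31.6 ± 9 in Nat1-/-, 30.9 ± 7.44 in Nat1+/- and 110 ± 23.8 in WT cultures, and Chac1 averaged 170 ± 29.7 in Nat1-/-, 137 ± 42.5 in Nat1+/- and 375 ± 86.3 in WT cultures, with WT highest and the targeted genotypes overlapping. Asns RPF was lowest in WT cultures, 6472 and 8105, below all 6 targeted cultures, at fold changes of 0.72 ± 0.28 for Nat1-/- (adjusted p = 0.0739) and 0.81 ± 0.28 for Nat1+/- (adjusted p = 0.0886), neither called. Trib3 in both assays and Sesn2 in total RNA were higher in both WT cultures than in all 6 targeted cultures. WT cultures, where Atf3 and Chac1 stood highest, also had the highest summed fibroblast markers, with Col1a1 RPF at 22.7 to 45.3 in Nat1-/-, 77 to 707 in Nat1+/- and 1911 and 5922 in WT cultures. Other markers of that list had another order, with Thy1 RPF at 125, 46.2 and 96.8 in Nat1-/-, 259, 328 and 219 in Nat1+/- and 162 and 121 in WT cultures, and Pdgfrb likewise higher in every Nat1+/- culture (188 to 228) than in WT cultures (113 and 165). The handling-sensitive gene Egr1 stood at 52.9, 66.6 and 39.9 in Nat1-/- and 467, 481 and 288 in Nat1+/- cultures, with 534 and 530 in WT cultures. The part of these markers in the Atf3 and Chac1 differences was not tested.

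The genes most like Atf4 across the 8 cultures were sought by Pearson correlation of log2(value + 1) among 10780 genes with a mean of at least 50 in both assays. In RPF these were Tpcn2 (r = 0.9856), Ppih (0.9839) and Slc35d2 (0.9788), and in total RNA Pip4k2c (0.9935), Trak1 (0.9925) and Npdc1 (0.9896). Tpcn2, an endolysosomal ion channel gene, followed it with 158.7, 107.5 and 120.8 RPF normalised reads in Nat1-/- cultures, 71.57, 54.68 and 64.03 in Nat1+/- cultures and 128.2 and 88.1 in WT cultures. The 8 points share libraries and only 3 genotypes, so that any gene with the same order of genotypes correlates highly.

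Upstream of Atf4, genes for the eIF2 alpha kinases and for eIF2 and eIF2B subunits were called higher in RPF in Nat1-/- than in Nat1+/- cultures for 4 of 14 and lower for 0, against 17.6% higher and 18.6% lower over all genes, with a median of 0.29 beside 0.024. In total RNA 3 were higher and 2 lower, against 19.8% higher and 20.2% lower over all genes, with a median of 0.05. The 2 lower were Eif2b3 (-0.56, adjusted p = 0.0125) and Impact (-0.67, adjusted p = 0.0399). The 4 called in RPF were Eif2ak2 (PKR, the kinase activated by double-stranded RNA; 0.67 ± 0.14, adjusted p = 0.0062), Eif2b1 (an eIF2B regulatory subunit; 0.63 ± 0.15, adjusted p = 0.00967), Eif2ak1 (HRI, the haem-regulated kinase; 0.62 ± 0.16, adjusted p = 0.0134) and Eif2s2 (the beta subunit of eIF2; 0.50 ± 0.17, adjusted p = 0.0427). Eif2ak2 had RPF values of 1090, 1157 and 1373 in Nat1-/- cultures, against 671, 812 and 793 in Nat1+/- cultures, with 641 and 647 in WT cultures. The ER kinase gene Eif2ak3 (PERK) was at 0.64 ± 0.23 (adjusted p = 0.0561) and the amino acid sensor Eif2ak4 (GCN2) at -0.28 ± 0.17 (adjusted p = 0.233), neither called. Phosphorylation of eIF2 alpha was not measured. Of 6 bZIP partners and cofactors, 1 was called higher in RPF, a share near the 17.6% over all genes, and 0 lower, against 18.6%. The 1 called was Jdp2, a repressor that pairs with Jun-family proteins (0.80 ± 0.28, adjusted p = 0.0449). Cebpb (-0.82, adjusted p = 0.123) and Crebzf (-0.46, adjusted p = 0.176) were not called. Under 18 alternative settings Eif2ak2 and Eif2b1 were called in all, Eif2ak1 in 16 (lost without A7), Eif2s2 in 7 (lost with equal library sums and without B2, C3, A7, C1 or either WT culture) and Jdp2 in 4 (lost with equal library sums and without any single culture other than A7), with adjusted p of up to 0.053 for Eif2ak1, 0.163 for Eif2s2 and 0.137 for Jdp2. The kinase and subunit list had 2 members called higher without A7 and 7 without C3, and Eif2ak3 was called higher without B12 or B4. Without B12 the bZIP list had 0 called higher and 2 lower, Cebpb and Crebzf. Set against WT cultures in RPF, Nat1-/- cultures were called higher for Eif2ak2 (0.90, limma adjusted p = 0.0023). They were not called for Eif2b1 (0.15, adjusted p = 0.521), Eif2ak1 (0.11, adjusted p = 0.655) or Eif2s2 (0.29, adjusted p = 0.267). Eif2ak1 RPF was 1458, 1142 and 1031 in Nat1-/-, 698, 808 and 842 in Nat1+/- and 1106 and 1111 in WT cultures.

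Downstream, genes for amino acid uptake and synthesis went both ways, with 5 of 20 called higher and 5 lower in RPF, against 17.6% and 18.6% over all genes, and a median of 0.09. In total RNA 3 of 21 were higher and 5 lower, against 19.8% higher and 20.2% lower over all genes. Those higher in RPF were Mthfd2 and Shmt2, enzymes of mitochondrial one-carbon metabolism, Pck2, a mitochondrial gluconeogenic enzyme, and Slc7a1 and Slc7a3, transporters of cationic amino acids, at 0.55 (Shmt2) to 1.01 (Pck2). Those lower were Phgdh and Psat1, consecutive enzymes of serine synthesis, Pycr1 of proline synthesis, and the neutral amino acid transporters Slc1a4 and Slc7a5, at -2.63 (Phgdh) to -0.50 (Slc7a5). Pycr1 RPF was 292, 462 and 627 in Nat1-/- cultures, against 1124, 1259 and 971 in Nat1+/- cultures, with 625 and 876 in WT cultures, a fold change of -1.34 ± 0.26 (adjusted p = 0.00414). The WT cultures of Pycr1 lay between the targeted genotypes except for C3 at 627, just above WTex1. Mthfd2, at 2971, 2460 and 3198 in Nat1-/- cultures, against 1374, 1966 and 1425 in Nat1+/- cultures, had 3035 and 2961 in WT cultures and so was low in Nat1+/- cultures as Atf4 was. Among 12 cytosolic tRNA synthetases reported as ATF4 targets, 2 were called lower in RPF, a share near the 18.6% over all genes. In the other direction 0 were called, against 17.6%. Those lower were Eprs at -0.61 ± 0.18 (adjusted p = 0.027) and Aars at -0.63 ± 0.22 (adjusted p = 0.0477). Sars was at -0.44 ± 0.21 (adjusted p = 0.129), not called, and the median was -0.11. In total RNA 3 of the 12 were lower and 0 higher, against 20.2% lower and 19.8% higher over all genes. The total RNA median was -0.29, and Sars was among those lower (-0.92, adjusted p = 0.0243). Under the 18 settings Phgdh, Pycr1, Mthfd2, Slc7a1 and Slc7a3 were called in all, while calls were lost without B4 for Pck2 and Shmt2, without B2 for Shmt2, without either for Psat1, and without B2, A7 or B4 for Slc1a4 and Eprs, with adjusted p of up to 0.103 for Psat1; Slc7a5 (8 of 18, adjusted p up to 0.164) and Aars (10 of 18, up to 0.147) were lost in most single-culture omissions. The synthetases had 0 called lower without B2, A7 or B4 and 4 without C3, and the amino acid genes had 2 called lower without B2 and 3 called higher without B4. For Nat1-/- against WT in RPF, 0 of the 12 synthetases were called higher and 0 lower, with a median of 0.14. Over all genes those shares were 16.5% higher and 18.3% lower. Eprs was then at 0.34 (limma adjusted p = 0.227) and Aars at -0.39 (adjusted p = 0.244).

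Of 11 other reported ATF4 or CHOP targets, 1 was called higher in RPF in Nat1-/- than in Nat1+/- cultures, against 17.6% over all genes. In the same test 2 were called lower, a share near the 18.6% over all genes, with a median of -0.24. In total RNA 1 was higher and 3 lower, against 19.8% higher and 20.2% lower over all genes. Gdf15 was called lower in total RNA (-0.88, adjusted p = 0.0497) but not in RPF. Ddit4 (REDD1), an inhibitor of mTORC1 like Sesn2, had RPF values of 756, 1258 and 3060 in Nat1-/- cultures, against 7360, 6064 and 4486 in Nat1+/- cultures, with 2516 and 1849 in WT cultures, a fold change of -2.03 ± 0.42 (adjusted p = 0.00532). Within the Nat1-/- lines Ddit4 was lowest in B12 and highest in C3, the order seen for Asns and Ddit3. Vldlr, a lipoprotein receptor gene, was lower at -1.36 ± 0.42 (adjusted p = 0.0291) and the angiogenic factor Vegfa higher at 0.86 ± 0.28 (adjusted p = 0.0355). Of the 3 other mRNAs reported to be translated through uORFs when eIF2 alpha is phosphorylated, 1 was called higher and 1 lower in RPF. Over all genes the shares were 17.6% higher and 18.6% lower. Slc35a4 was higher (0.98 ± 0.30, adjusted p = 0.0316), Ibtk lower (-1.10 ± 0.20, adjusted p = 0.00303) and Ifrd1 not called (0.26 ± 0.23, adjusted p = 0.409). Slc35a4 RPF was 685, 396 and 280 in Nat1-/- cultures, against 236, 180 and 232 in Nat1+/- cultures, with 566 and 377 in WT cultures, which places WT within the Nat1-/- range. The ER chaperone and ATF6 or XBP1 genes, the branch of the unfolded protein response that does not act through eIF2, were called higher for 5 of 20 and lower for 0 in RPF, against 17.6% and 18.6% over all genes, with a median of 0.21. In total RNA 4 were higher and 1, the chaperone gene Hsp90b1, lower (-0.62, adjusted p = 0.0414), against 19.8% higher and 20.2% lower over all genes. The strongest calls were Creld2, an ER stress-induced secreted factor (0.69 ± 0.11, adjusted p = 0.00187), Syvn1, an ER-associated degradation ligase (0.58 ± 0.13, adjusted p = 0.00891), and Xbp1, the transcription factor of the IRE1 branch (0.64 ± 0.17, adjusted p = 0.0172). The chaperone Hspa5 (BiP) was at 0.30 ± 0.15 (adjusted p = 0.153), not called. Under the 18 settings Ddit4, Ibtk, Creld2 and Syvn1 were called in all, and calls were lost for Vegfa (9 of 18, adjusted p up to 0.109) with equal library sums and without B2, C3, B4, C1 or either WT culture, for Vldlr (11 of 18, up to 0.111) and Slc35a4 (12 of 18, up to 0.102) without any single targeted culture other than C3, and for Xbp1 (15 of 18, up to 0.066) without B2, A7 or C1. The ER list had 2 called higher without B2, A7 or C1 and 3 without B4, and the other ATF4 or CHOP targets had 5 called lower without C3. Set against WT in RPF, Nat1-/- cultures were called higher for Creld2 (0.45, limma adjusted p = 0.0221) and Hspa5 (0.69, adjusted p = 0.0126). Syvn1 (0.27, adjusted p = 0.189) and Xbp1 (-0.08, adjusted p = 0.775) were not called there. Xbp1 RPF was 895, 1056 and 1140 in Nat1-/-, 601, 831 and 565 in Nat1+/- and 1127 and 1044 in WT cultures.

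Immediate-early genes, which respond to handling of cells, were called lower for 1 of 8 and higher for 0 in RPF, against 18.6% lower and 17.6% higher over all genes, with a median of -0.50. Egr1 was the one called (-2.92 ± 0.25, adjusted p = 7.22e-05), and Fos (-1.10 ± 0.39, adjusted p = 0.0504) and Zfp36 (-0.60 ± 0.24, adjusted p = 0.0773) were not. Without C3 this list had 4 called lower, with Fos and Zfp36 among them, and 1 higher. Embryonic stem cell markers were called higher for 6 of 10 in the same comparison, against 17.6% over all genes, with a median of 0.74. Klf4 was at 1.45 ± 0.27, Nanog at 0.90 ± 0.18 and Dppa5a at 0.84 ± 0.19 (adjusted p = 0.00332, 0.00444 and 0.00836). Fibroblast markers were called lower for 5 of 8, against 18.6% over all genes, with a median of -1.76. Col1a2 was at -4.30 ± 0.81, Pdgfrb at -1.85 ± 0.36 and Thy1 at -1.67 ± 0.34 (adjusted p = 0.00356, 0.00401 and 0.00528). Col3a1 (-1.435), Twist1 (0.145) and Postn (-0.013) were not called. The part of these 2 marker lists in the differences of the stress response genes was not tested.

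**Figure D5:**
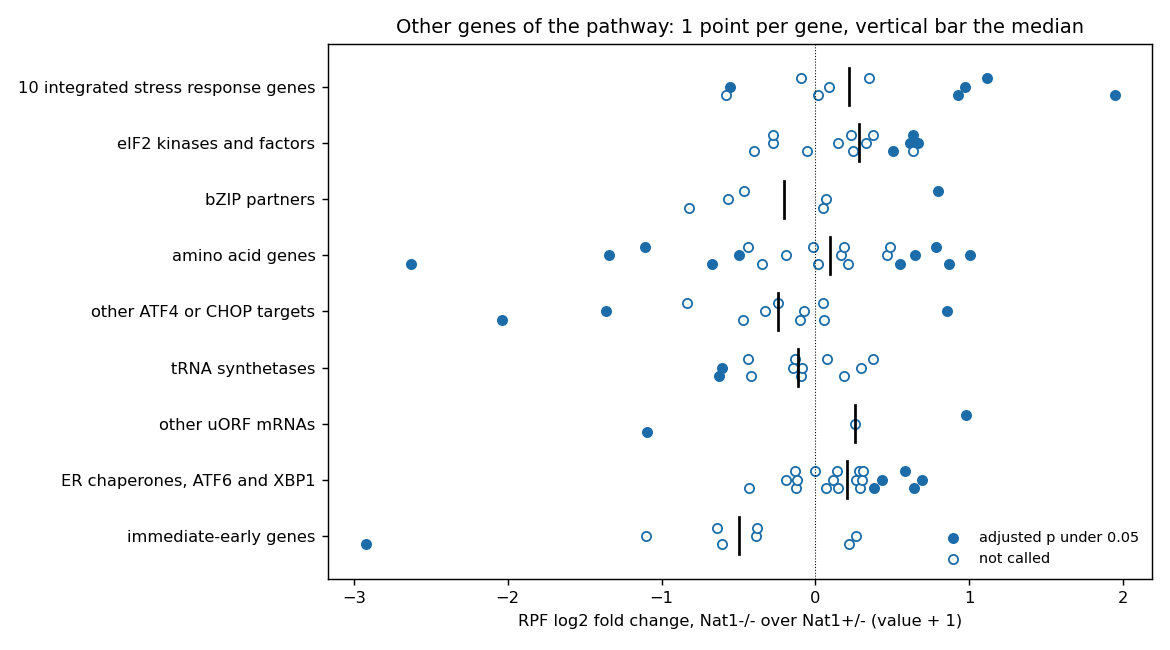
RPF log2 fold change of Nat1-/- over Nat1+/- cultures for the 10 genes and for 8 lists of related genes, one point per tested gene, vertical bars the list medians; filled points have a limma adjusted p under 0.05. Ppp1r15a is the rightmost point at 1.95, the amino acid genes spread to both sides of 0, and the kinase and ER lists have filled points on the right only.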

How the data were processed

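RPF and total RNA of each culture were prepared with the TruSeq Ribo Profile Mammalian Kit, per the labels' protocols. The authors deposited a signal, namely read counts divided by 1 factor per library within each assay, as the values show; the submitters' processing notes name HTSeq 0.6.1, TopHat2 2.1.0, Bowtie2 2.2.8, DESeq2, cutadapt 1.9.1, bcl2fastq 2.17 and the builds mm10 and GRCm38.p4. Such scaling hides a change shared by most genes. Whole reads were recovered for 100% of values (tolerance 0.02). In R 4.3.3, limma 3.58.1 (eBayes with trend, two-sided) was run on log2(value + 1) (Benjamini-Hochberg over all genes with a mean of at least 10), 3 genotype means per assay. As count tests of these reads, DESeq2 1.42.0 called 5224 genes and edgeR 4.0.16 called 4622 for RPF, Nat1-/- against Nat1+/-, where limma called 4737. RPF and total RNA of 1 culture deviated together (r = 0.384 to 0.821, 8 of 8 matched best), so ratios are also given with a culture term. Nothing in the labels says how the cultures of a group were separated, so p-values measure the spread between these samples. The members, lists and alternatives were chosen with earlier results of these data known, and the alternatives were extended to the other lists after seeing the data. Named are the 10 genes, Eif4g2, the 3 smallest RPF adjusted p per list and the 3 genes most like Atf4; other list genes and Col1a1 were named after their values were seen. Simulated data with known changes were used to check the fits. RefSeq promoters (GRCm38.p6) served only for sequence.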

Additional observations from a re-analysis of the deposited data

How the results depend on the processing

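Of 25 called values of single genes, each was recomputed under up to 18 alternatives, 444 in all; 369 stayed called, 75 lost the call and 0 reversed. All 36 reversals were of values not called. Members called with single cultures left out ranged from 4 to 5 in RPF and 4 to 5 in total RNA for Nat1-/- against Nat1+/-, from 1 to 4 and 2 to 7 for Nat1-/- against WT, and from 0 to 5 and 0 to 4 for Nat1+/- against WT, and stayed at 0 for the ratio. For Nat1+/- against WT in RPF, the count was 5 by DESeq2 on recovered reads and 5 with only those genotypes in the fit. Sign changes of uncalled values came with equal library sums (Atf3 RPF -0.064, Trib3 total RNA -0.006 and Ppp1r15b ratio -0.036 for Nat1-/- against Nat1+/-), edgeR (Atf3 RPF -0.014, Trib3 total RNA -0.008, Atf4 ratio 0.012), DESeq2 (Atf4 ratio 0.021) and the shallow total RNA cultures only (Atf3 RPF -0.183, Asns RPF 0.136, Trib3 total RNA -0.072, Asns total RNA 0.011). Equal library sums moved the median of all genes by -0.106 (RPF) and -0.119 (total RNA) for Nat1-/- against WT. The cause was not tested. With single cultures left out, the uncalled differences that changed sign for Nat1-/- against Nat1+/- ran from -0.183 to 0.219 (Atf3 RPF), -0.077 to 0.289 (Trib3 RPF), -0.382 to 0.136 (Asns RPF), -0.072 to 0.171 (Trib3 total RNA), -0.57 to 0.011 (Asns total RNA), -0.27 to 0.022 (Sesn2 total RNA), -0.096 to 0.07 (Atf4 ratio), -0.028 to 0.057 (Ppp1r15b ratio), -0.029 to 0.118 (Trib3 ratio) and -0.219 to 0.139 (Chac1 ratio). For Nat1+/- against WT they ran from -0.31 to 0.495 (Ddit3 RPF), -0.092 to 0.076 (Ppp1r15b RPF) and -0.098 to 0.317 (Sesn2 RPF).

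Genotypes share replicate numbers. Deviations of same-numbered cultures correlated across genes at r = -0.191 to -0.008 for pairs with a Nat1+/- culture and at 0.1 to 0.338 for Nat1-/- with WT, which have 2 pairs, and 0 of 6 targeted cultures matched best with its own number in either assay. With the replicate number as a block, 0 of the 10 genes were called in RPF and 0 in total RNA for Nat1+/- against WT (162 and 190 over all genes), and Ppp1r15b RPF changed sign there (0.095). The culture term that pairs RPF and total RNA gave 1 call in the ratio for Nat1-/- against Nat1+/-, Sesn2. Reads per library limit Atf3 (24 to 163 in RPF), Atf5 and Chac1 most.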
